A study of Mus musculus with 9 samples.

Results

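The 10 genes described here encode myosin light chains and their kinases: Myl1, Myl2, Myl3, Myl4, Mylpf, Myl6, Myl9, Myl12a, Mylk2 and Mylk4. They were chosen by symbol from a table of 55487 genes, with earlier results of these data known. All 10 were matched to an Ensembl gene and passed the filter on low counts. Their mRNA was measured by sequencing of polyadenylated RNA from gastrocnemius, a large calf muscle, of wild-type mice, C57BL/6 by the labels and C57BL/6J by the study's text, in 3 groups. Control mice (4 libraries) stayed in ordinary cages. Unloading mice (2 libraries) had the hind limbs lifted off the floor by the tail for 10 days, and Reloading mice (3 libraries) had the same 10 days and then 1 day back in the cage. The labels call the mice male while the study's methods describe the suspension of female mice, and no age is given in the sources used here. The comparisons ask how light chain expression differs in muscle that carried no load and in muscle to which load had just returned.

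Myosin is built from heavy chains, whose heads pull on actin, and from small light chains wrapped around the neck of each head. Each head carries 1 essential light chain, which stiffens the neck, and 1 regulatory light chain, which is phosphorylated on a serine near its start by a light chain kinase. In skeletal muscle this phosphorylation tunes force, and in smooth muscle and non-muscle cells it switches contraction on. Myl1 (essential) and Mylpf (regulatory) belong to fast fibres, Myl3 and Myl2 to slow fibres and the heart, and Myl4 to embryonic muscle and the atria. Myl6 (essential), Myl9 and Myl12a (regulatory) serve smooth muscle and non-muscle myosin. Mylk2 is the skeletal muscle light chain kinase, and Mylk4 is a related kinase of striated muscle.

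The stretch around the phosphorylated serine is printed because it is the point where the kinases and the regulatory light chains of the list meet. The 45 coding bases below run 5′ to 3′ and were read from the GENCODE M21 transcripts, with the serine codon in capitals. It is codon 16 of Mylpf, 15 of Myl2 and 20 of Myl9 and Myl12a, counted from 1 at the start codon.
Mylpf: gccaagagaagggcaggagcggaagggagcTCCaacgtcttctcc
Myl2: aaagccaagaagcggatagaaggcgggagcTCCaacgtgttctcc
Myl9: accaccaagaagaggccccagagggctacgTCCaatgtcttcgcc
Myl12a: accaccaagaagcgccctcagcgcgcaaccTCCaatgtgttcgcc
The serine codon was TCC in each. Over the whole coding sequence Myl9 and Myl12a shared 94.2% of residues, whereas Mylpf shared 65.1% with Myl2 and 56.0% with Myl9. Myl12b, the neighbour and near copy of Myl12a, had the same 45 bases and shared 97.7% of residues with it. Among essential light chains, Myl1 shared 75.0% of residues with Myl3, 75.1% with Myl4 and 70.2% with Myl6. The kinase genes Mylk2 and Mylk4 shared 55.6% over the aligned part.

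In GRCm38, the build of the counts, Myl1 lies at chr1:66924295-66945404 and Mylpf at chr7:127208890-127214298. Myl3 lies at chr9:110741861-110769798, Myl2 at chr5:122100951-122113472 and Myl4 at chr11:104550663-104595753. Myl6 lies at chr10:128490860-128494145, Myl9 at chr2:156775420-156781658 and Myl12a at chr17:70993656-71002878. Mylk2 lies at chr2:152911352-152923068 and Mylk4 at chr13:32700827-32783954. The counts cover the exons of each gene, so products of alternative promoters, such as those of Myl1, were summed.

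The libraries held between 9252443 and 19612101 read pairs in genes. Levels are given as CPM (read pairs of a gene per 1000000 read pairs in genes) after TMM scaling (trimmed mean of M-values), which takes most genes as not changed. The TMM factors were 1.11 to 1.13 in Reloading and 0.928 to 0.960 in the other libraries. With library totals alone the median of all genes moved from 0.03 to 0.27 (log2) for Reloading against Unloading and from 0.01 to 0.25 for Reloading against Control, and the share of calls that were higher moved from 49.3% to 82.8% and from 50.9% to 80.2%. The 6 skin markers, of which 0 passed in any comparison by edgeR (3 at an unadjusted p under 0.05 in Unloading against Control, 0 in the others; DESeq2 gave no adjusted p), stood out in Control 2 (291 summed CPM) and Reloading 1 (132) against 2.31 to 4.20 elsewhere. The defining skeletal muscle markers were abundant in every library, at 53844 summed CPM or more for 7 genes, while the 6 cardiac markers summed to 8.48 CPM at most, with Nppa at 0 in every Control and Unloading library and 1 of the 3 tested, Myh6, higher in Reloading (0.68 against Unloading, adjusted p = 0.0185).

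Per kilobase of exon (RPKM, the scale used to rank different genes), Mylpf stood highest in Control at 9394 ± 425 (SD, n = 4), with Myl1 at 4733 ± 246. The length sums all annotated exons of a gene, 1062 bases for Mylpf and 2074 for Myl1, and the order of genes depends on it. In CPM Mylpf (mean 9977) and Myl1 (mean 9816) overlapped in Control. The kinases followed, Mylk2 at 432 ± 24.0 and Mylk4 at 385 ± 27.6, with overlapping ranges. Next came the slow chains Myl3 at 89.5 ± 7.68 and Myl2 at 70.8 ± 17.5, which also overlapped. Myl6 stood at 33.3 ± 1.50, and Myl9 (19.8 ± 1.86) and Myl12a (18.9 ± 0.853) could not be ordered. All ranks of Myl12a are limited by counts that come from part of the gene only, as described below. Myl4 was the lowest at 1.65 ± 0.255 RPKM. In Unloading, Myl6 (36.7 ± 0.346, n = 2) already had a higher mean than Myl2 (33.8 ± 13.5), with overlapping ranges, and Myl12a (20.1 ± 0.625) stood above Myl9 (18.0 ± 0.880). In Reloading, Myl6 (43.1 ± 1.24, n = 3), Myl9 (34.2 ± 2.40) and Myl12a (33.0 ± 4.23) had higher means than Myl2 (27.8 ± 7.46) and Myl3 (24.9 ± 1.74). Of those neighbours in Reloading, Myl6 and Myl9 did not overlap, while Myl9, Myl12a, Myl2 and Myl3 each overlapped with the next. The 10 genes took 2.32% ± 0.0582 (n = 4) of all counts in Control, 2.23% ± 0.0148 (n = 2) in Unloading and 1.77% ± 0.0287 (n = 3) in Reloading.

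**Figure D1:**
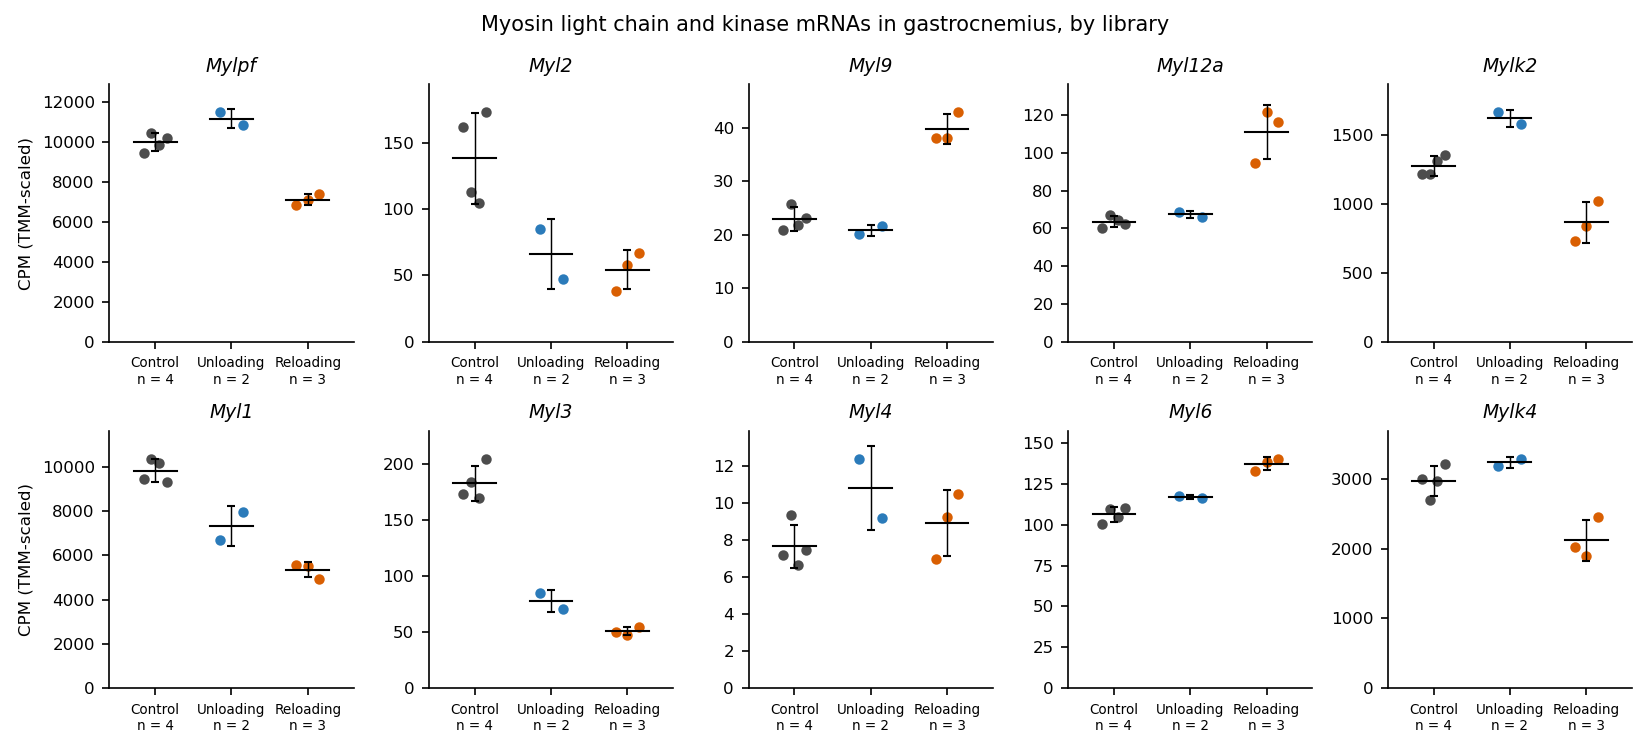
TMM-scaled CPM of each gene (vertical axis, from 0) in Control, Unloading and Reloading, with a point per library, a bar at the mean and whiskers of 1 SD. Myl3 steps down from 170 to 205 CPM in Control to 47.7 to 54.7 CPM in Reloading, while Myl9 and Myl12a stand apart only in Reloading.

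After 10 days of unloading, 3 light chain genes were lower than in Control and 1 kinase gene was higher, by the edgeR quasi-likelihood test adjusted over all 14851 tested genes. The slow chains fell most: Myl3 to a log2 fold change of -1.23 and Myl2 to -1.07, while the fast essential chain Myl1 fell by 0.42. Mylk2 rose by 0.35. These 4 of 10 calls, 1 higher and 3 lower, compare with 9.90% of all tested genes, 4.40% higher and 5.50% lower, and 6 of the 10 genes had groups that did not overlap, against 33.0% of all genes. The median log2 fold change of the 10 was 0.10, against -0.00 over all genes.

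Myl3 had 173, 184, 170 and 205 CPM in Control 1 to 4, 85.1 and 70.9 in the Unloading libraries, and 50.4, 47.7 and 54.7 in Reloading 1 to 3. Every Unloading library lay below every Control library, and every Reloading library below both Unloading libraries. The fall was 2.35-fold for Unloading against Control (SE 0.10 on the log2 scale, adjusted p = 2.25e-05), 1.53-fold for Reloading against Unloading (log2 -0.61, SE 0.10, adjusted p = 0.000291) and 3.59-fold for Reloading against Control (log2 -1.84, SE 0.09, adjusted p = 1.13e-09). Each of these 3 calls stood in all 18 alternative settings. No other gene of the list fell as far against Control, except that without Unloading 1 Myl2 fell further than Myl3 in Unloading (log2 -1.54 against -1.36).

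Myl2, the slow regulatory chain, had 162, 113, 105 and 173 CPM in Control 1 to 4, 84.6 and 47.4 in Unloading, and 38.3, 57.9 and 66.7 in Reloading 1 to 3. All Unloading and Reloading libraries lay below the lowest Control library, whereas Unloading and Reloading overlapped. Myl2 fell by 1.07 in Unloading against Control (SE 0.25, adjusted p = 0.0145) and by 1.34 in Reloading against Control (SE 0.22, adjusted p = 0.000162). Reloading against Unloading gave a log2 fold change of -0.27 (95% interval -0.81 to 0.27, adjusted p = 0.431). The Unloading call was lost without Unloading 2 (log2 -0.71, adjusted p = 0.137) and in the robust fit (adjusted p = 0.133).

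Slow-fibre genes also differed between libraries of the same group. Myh7, the slow myosin heavy chain, had 245, 138, 131 and 278 CPM in Control 1 to 4, 277 and 157 in Unloading and 152, 174 and 166 in Reloading. Control 1, Control 4 and Unloading 1 were thus high, as they were for the slow troponins Tnnt1 and Tnnc1, and Myl2 was higher in each of these 3 libraries than in the others of its group. Per length, the ratio of Myl2 to Myh7 was 2.75 to 3.61 in Control, 1.33 and 1.35 in Unloading and 1.11 to 1.78 in Reloading. For Myl3 to Myh7 it was 2.99 to 5.59 in Control, 1.30 and 1.90 in Unloading and 1.15 to 1.39 in Reloading. These ratios were chosen after the values were seen and carry no test. Of 7 slow-fibre markers, 0 passed in Unloading against Control by edgeR or DESeq2 and 1 had an unadjusted p under 0.05 (median -0.05). Tnni1 stood at -0.45 (adjusted p = 0.227) and Myh7, which is no member of those 7, at 0.13 (adjusted p = 0.795). In Reloading against Unloading 2 of the 7 were lower, and in Reloading against Control 5 were lower (median -0.62), or 2 with library totals. Their summed level was 1773 to 2249 CPM in Control, 1747 to 2140 in Unloading and 1378 to 1866 in Reloading. The part of slow-fibre content of the sampled piece in the fall of Myl2 and Myl3 was not tested. In whole muscle, fewer cells of a type and less RNA per cell cannot be told apart.

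**Figure D2:**
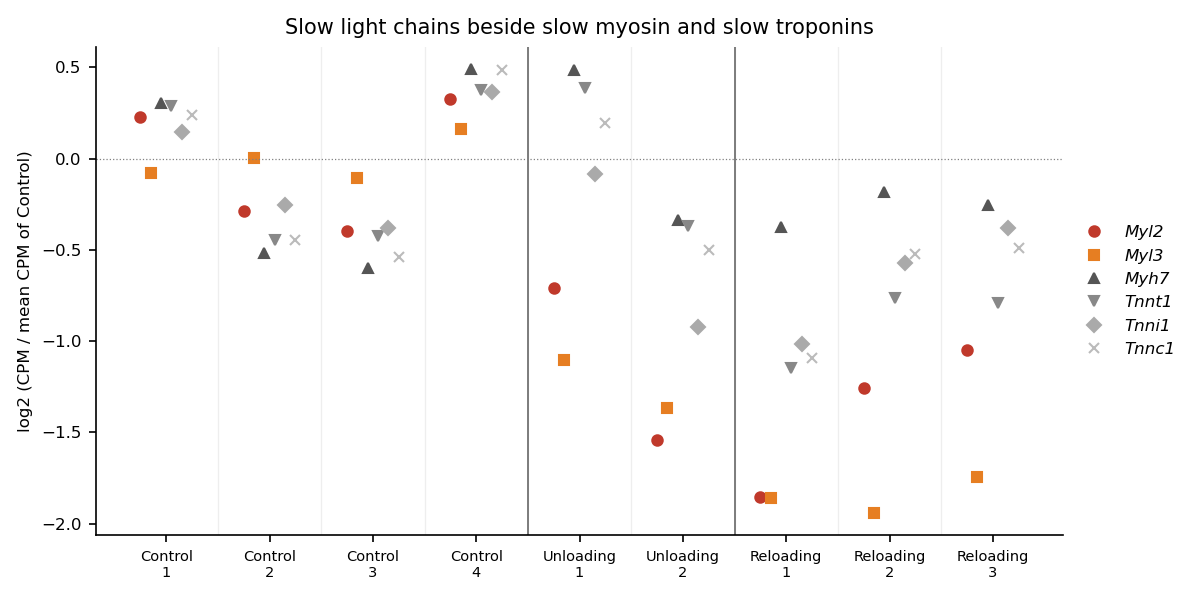
Log2 of CPM over the Control mean (vertical axis) for the slow light chains Myl2 and Myl3 and for Myh7, Tnnt1, Tnni1 and Tnnc1 in each library (horizontal axis). Unloading 1 holds as much Myh7 (277 CPM) as Control 4 (278 CPM) but less Myl2 and Myl3.

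Myl1 had 9445, 10358, 10140 and 9320 CPM in Control 1 to 4, 6682 and 7953 in Unloading, and 5582, 5513 and 4948 in Reloading 1 to 3. The groups did not overlap and lay in that order. Against Control the log2 fold change was -0.42 in Unloading (SE 0.09, adjusted p = 0.00762) and -0.88 in Reloading (SE 0.08, adjusted p = 5.24e-07). For Reloading against Unloading it was -0.45 (SE 0.09, adjusted p = 0.00112). The Unloading call was lost without Unloading 1 (-0.30, adjusted p = 0.183), and the call against Unloading was lost with library totals (-0.20, adjusted p = 0.0758).

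Mylpf, the fast regulatory chain, had 9415, 10450, 9837 and 10205 CPM in Control 1 to 4, 11480 and 10837 in Unloading, and 6856, 7068 and 7389 in Reloading. Here both Unloading libraries were above every Control library and every Reloading library was below. The difference between Unloading and Control did not pass (log2 0.16, 95% interval 0.01 to 0.31, adjusted p = 0.167). Mylpf fell by 0.65 on the log2 scale in Reloading against Unloading (SE 0.07, adjusted p = 1.21e-05) and by 0.49 against Control (SE 0.06, adjusted p = 2.22e-05).

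Myl4 had 6.64 to 9.37 CPM in Control, 12.4 and 9.23 in Unloading and 7.01, 9.26 and 10.5 in Reloading. The groups overlapped in every comparison and none passed (log2 0.49, adjusted p = 0.0958 for Unloading against Control; 0.23, adjusted p = 0.281 for Reloading against Control; -0.26, adjusted p = 0.285 for Reloading against Unloading). Without Control 2 and Reloading 1 the values against Control were 0.60 (adjusted p = 0.0330) and 0.48 (adjusted p = 0.0297). Of 5 tested markers of embryonic and regenerating fibres, 3 were lower in Unloading against Control and 4 higher in Reloading against Unloading. Actc1, cardiac actin, which embryonic muscle also makes, fell by 2.01 in the first (adjusted p = 0.000301) and rose by 1.15 in the second (adjusted p = 0.00161), where the myogenic factor Myog rose by 1.40 (adjusted p = 0.00025). In Reloading against Control 2 of the 5 were higher, Myog and the myogenic factor Myod1, and 1, Actc1, was lower (median -0.11).

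More of the list passed in the comparisons with Reloading, as did more of all tested genes. Of 10 genes, 8 passed in Reloading against Unloading, against 37.5% of all tested genes: 3 were higher (18.5% of all genes) and 5 lower (19.0%). Groups did not overlap for 8 of 10, against 60.0% of all genes, and the median was -0.36 against 0.03. The lower genes were the fast and slow sarcomeric chains Myl1, Mylpf and Myl3 and both kinases, and the higher ones were the smooth and non-muscle chains Myl6, Myl9 and Myl12a. In Reloading against Control 9 of 10 passed, 3 higher and 6 lower, against 43.5% of all genes (22.1% higher, 21.3% lower). There 9 of 10 did not overlap, against 46.9%, and the median was -0.49 against 0.01. The 2 comparisons share the Reloading libraries and are not independent. Each gene kept its direction in both with library totals and with median-of-ratios size factors.

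**Figure D3:**
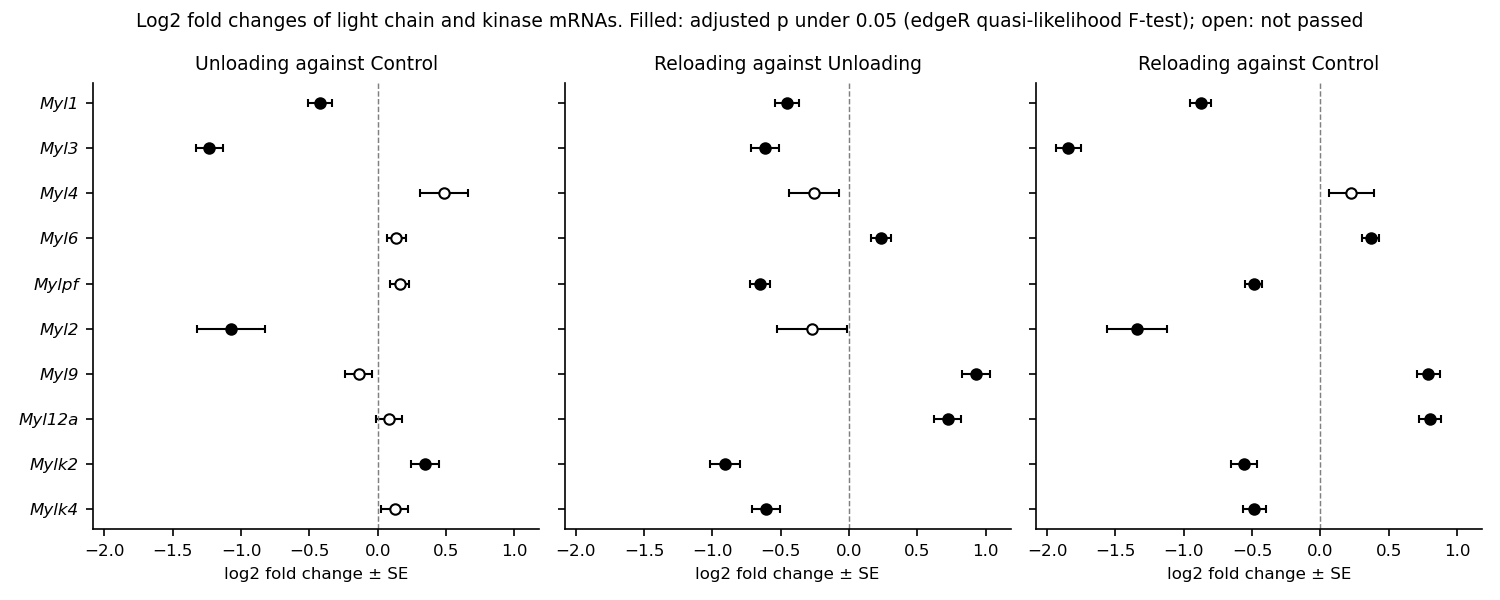
Log2 fold change with its SE (horizontal axis) of each gene (vertical axis) in Unloading against Control, Reloading against Unloading and Reloading against Control, filled where the adjusted p was under 0.05. In the panels with Reloading, Myl6, Myl9 and Myl12a lie to the right of 0 and Myl1, Myl3, Mylpf, Mylk2 and Mylk4 to the left.

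Myl9, the smooth muscle regulatory chain, had 20.9, 25.9, 21.9 and 23.3 CPM in Control 1 to 4, 20.1 and 21.6 in Unloading and 38.2, 38.1 and 43.0 in Reloading. All Reloading libraries were above all others, and Control and Unloading overlapped. Myl9 rose 1.90-fold against Unloading (log2 0.93, SE 0.10, adjusted p = 1.02e-05) and 1.73-fold against Control (log2 0.79, SE 0.09, adjusted p = 4.15e-06). Unloading against Control gave -0.14 (95% interval -0.36 to 0.08, adjusted p = 0.418).

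Myl12a, a non-muscle regulatory chain, had 60.4, 67.1, 64.4 and 62.4 CPM in Control 1 to 4, 68.9 and 65.9 in Unloading and 94.8, 122 and 116 in Reloading. As for Myl9, all Reloading libraries were above all others, and Control and Unloading overlapped. The rise was 1.65-fold against Unloading (log2 0.72, SE 0.10, adjusted p = 5.8e-05) and 1.74-fold against Control (log2 0.80, SE 0.08, adjusted p = 2.09e-06). Unloading against Control gave 0.08 (95% interval -0.12 to 0.28, adjusted p = 0.628).

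The Myl12a counts come from part of the gene only, while its RPKM divides them by all 3360 exon bases. This limits its rank against Myl9 and the shares of the regulatory chains. An overlapping annotated locus, Gm49909, holds 67.1% of the 516 coding bases of Myl12a and 100% of the 516 coding bases of Myl12b in its own exons. Myom1, on the opposite strand, shares 207 exon bases with Myl12a, and counting did not regard strand. Read pairs that fall in more than 1 gene were not counted. Myl12b had 9 to 38 counts per library, and its level is not read further. Gm49909 had 7.86 to 11.4 CPM in Control, 6.74 and 6.56 in Unloading and 13.1 to 17.2 in Reloading. Of the 50-base words of Myl12a, 21.1% also occur in another gene. The corresponding share was 11.7% for Myl1 (a pseudogene, Mylf-ps), 8.38% for Myl6 and at most 2.46% for the other 7 genes.

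Myl6, the essential chain of smooth and non-muscle myosin, had 100, 110, 105 and 110 CPM in Control 1 to 4, 118 and 116 in Unloading and 133, 139 and 140 in Reloading. The groups did not overlap and lay in that order. Myl6 rose by 0.37 in Reloading against Control (SE 0.06, adjusted p = 0.000189) and by 0.23 against Unloading (SE 0.07, adjusted p = 0.0216). The second call is weak: it was lost in 7 of 18 alternatives, among them leaving out Unloading 1 (0.24, adjusted p = 0.0786), Unloading 2 (0.21, adjusted p = 0.118), Reloading 2 (0.22, adjusted p = 0.0655) or Reloading 3 (0.22, adjusted p = 0.0537). Unloading against Control gave 0.14 (95% interval -0.01 to 0.28, adjusted p = 0.230).

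These 3 chains moved with some other genes of smooth muscle and non-muscle myosin, though not with all. Mylk, the smooth muscle light chain kinase, rose by 0.53 in Reloading against Unloading (SE 0.11, adjusted p = 0.00126) and by 0.82 against Control (SE 0.09, adjusted p = 4.56e-06). In Unloading against Control it stood at 0.29 (adjusted p = 0.0867), with groups that did not overlap. Of the other 4 tested light chain and kinase genes Mylk alone passed in the comparisons with Reloading (Myl6b, Myl10 and Myl12b did not). Among 10 heavy chain genes 4 were higher and 2 lower in Reloading against Unloading, or 5 and 1 with library totals. The non-muscle chains Myh9 and Myh10 rose by 1.82 (adjusted p = 3.58e-08) and 1.60 (adjusted p = 4.99e-07) there, and the smooth muscle chain Myh11 by 1.02 (adjusted p = 1.11e-05). Myh14, also a non-muscle chain, stood at -0.22 there (adjusted p = 0.0823) with groups that did not overlap, or at 0.03 with library totals. Of 7 smooth muscle markers, Myh11 among them, 6 were higher in that comparison (median 1.02, the value of Myh11 itself), with Acta2, smooth muscle actin, up by 1.46 (adjusted p = 1.05e-07). Against Control 4 of the 7 were higher and 1 lower (median 1.11), or 5 and 0 with library totals. The lower one was the enteric smooth muscle actin Actg2 (-0.61, adjusted p = 0.00957). Actg2 and Smtn, a smooth muscle cytoskeletal protein, had fallen in Unloading against Control, by 1.31 (adjusted p = 0.00197) and 0.50 (adjusted p = 0.00826). All 7 smooth muscle markers together summed to 129 to 159 CPM in Control, 111 and 114 in Unloading and 183 to 206 in Reloading. All 5 endothelium markers (median 0.94), all 6 macrophage markers (median 0.94) and 3 of 5 pericyte markers were also higher in Reloading against Unloading. The pericyte marker Rgs5 was lower (-0.29, adjusted p = 0.0105), with 0 pericyte markers lower under library totals, and 2 of 5 fibroblast markers were higher and 2 lower. Macrophage markers summed to 49.8 to 61.4 CPM in Control, 49.0 and 51.7 in Unloading and 114 to 129 in Reloading, and endothelium markers to 123 to 154, 132 and 133, and 226 to 292. Which cells carried the additional Myl6, Myl9 and Myl12a transcripts was not tested.

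**Figure D4:**
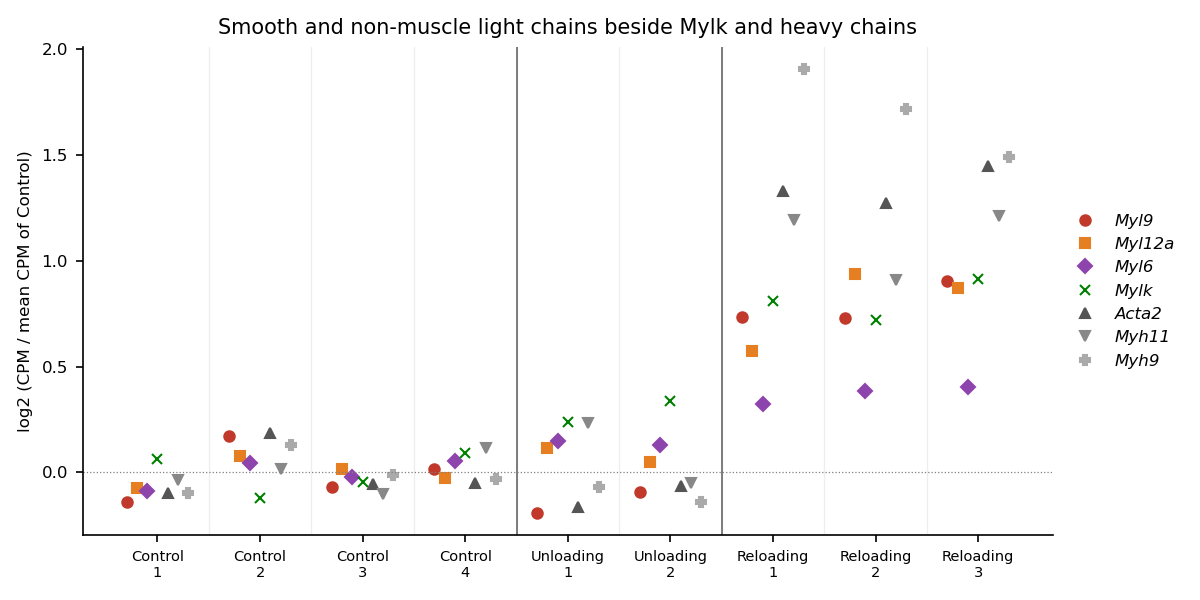
Log2 of CPM over the Control mean (vertical axis) for Myl9, Myl12a, Myl6, the kinase gene Mylk, Acta2 and the heavy chain genes Myh11 and Myh9 in each library (horizontal axis). The genes lie near 0 in Control and above it in every Reloading library, Myl6 least (133 to 140 CPM) and Myh9 most (162 to 216 CPM). In Unloading they lie between -0.19 (Myl9) and 0.34 (Mylk).

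Mylk2, the skeletal muscle light chain kinase, had 1216, 1217, 1315 and 1356 CPM in Control 1 to 4, 1667 and 1578 in Unloading and 733, 843 and 1021 in Reloading. It was the only gene of the list that passed in opposite directions: Unloading lay above all Control libraries and Reloading below them. Mylk2 was 1.27-fold higher in Unloading than in Control (log2 0.35, SE 0.10, adjusted p = 0.0449) and 1.87-fold lower in Reloading than in Unloading (log2 -0.91, SE 0.11, adjusted p = 1.68e-05). Reloading against Control gave -0.56 (SE 0.09, adjusted p = 0.00019). The rise in Unloading is close to the threshold and was lost in 6 of 18 alternatives: without Unloading 1 it was 0.31 (adjusted p = 0.320), without Unloading 2 0.38 (0.0947), and without Control 1, 2 or 3 or Reloading 2 it was 0.32 to 0.36 (adjusted p 0.0669 to 0.0880).

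Mylk4 had 2991, 2696, 2963 and 3215 CPM in Control 1 to 4, 3178 and 3290 in Unloading and 2021, 1892 and 2454 in Reloading. Control and Unloading overlapped (log2 0.12, 95% interval -0.08 to 0.33, adjusted p = 0.452). Every Reloading library was below every other library. Mylk4 fell by 0.61 on the log2 scale against Unloading (SE 0.10, adjusted p = 0.000303) and by 0.48 against Control (SE 0.09, adjusted p = 0.00037). Per length, Mylk2 and Mylk4 together made up nearly all light chain kinase mRNA, Mylk2 52.8% ± 1.19 of it in Control, 56.6% ± 1.56 in Unloading and 51.3% ± 2.63 in Reloading. Mylk was 0.153% ± 0.00722 of it in Control and 0.390% ± 0.0378 in Reloading, and Mylk3, the cardiac kinase, had 1 to 4 counts per library.

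Light chain phosphatase reverses the phosphorylation. Of its 7 genes, the catalytic subunit Ppp1cb fell by 0.74 (adjusted p = 8.89e-05) and the inhibitor Ppp1r14c by 0.64 (adjusted p = 2.55e-05) in Reloading against Unloading, and the targeting subunit Ppp1r12c rose by 0.61 (adjusted p = 0.000336). Ppp1r12a, the myosin-targeting subunit, was higher in Unloading (0.51, adjusted p = 0.00544) and in Reloading (0.32, adjusted p = 0.00873) than in Control. Over the 7 genes 1 was higher and 2 lower in Reloading against Unloading, with a median of 0.03, or 3 higher and 2 lower with library totals.

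The sarcomeric partners of the fast chains were lower too. Of 7 skeletal muscle markers 5 were lower in Reloading against Unloading, or 3 with library totals. Against Control 4 were lower and 1, the intermediate filament gene Des, was higher (0.19, adjusted p = 0.0253). Of 7 fast-fibre markers, 6 were lower in Reloading against Unloading (median -0.65) and 6 in Reloading against Control (median -0.59). With library totals these were 5 (median -0.40) and 4 (median -0.35). Of these, Mybpc2 turned from -0.18 to 0.06 against Control with library totals. In Unloading against Control, Atp2a1 (0.33, adjusted p = 0.00767) and Actn3 (0.61, adjusted p = 0.000595) were higher and Tnnc2 (-0.53, adjusted p = 0.00372) lower. Myh4, the fast heavy chain of the most abundant fibre type, fell by 0.33 in Reloading against Unloading (adjusted p = 0.00855) and was at 0.03 in Unloading against Control (adjusted p = 0.879). Myh2, the heavy chain of fast oxidative fibres, fell by 0.93 in Unloading against Control (adjusted p = 0.00544), and its difference between Reloading and Unloading was 0.07 (adjusted p = 0.783). Per length the ratio of Myl1 to Myh4 was 0.387 to 0.463 in Control, 0.303 and 0.339 in Unloading and 0.261 to 0.331 in Reloading, a description chosen after the values were seen.

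Ratios of light chains within a library do not depend on how libraries are scaled. Of these, 4 were tested by exact permutation of the 9 libraries over the groups (1260 assignments, smallest possible p = 0.000794), adjusted over the 4. The 4 were chosen with earlier results of these data known, so their p-values are not those of ratios fixed in advance. Mylpf to Myl2, fast to slow regulatory chain, had a geometric mean of 136 in Control (107 to 172), 323 in Unloading (249 and 420) and 247 in Reloading (203 to 329), with an exact permutation p = 0.0151 (adjusted 0.0201). Myl1 to Myl3, fast to slow essential chain, was 53.0 in Control (44.9 to 58.8), 92.5 in Unloading (77.4 and 111) and 104 in Reloading (89.2 to 114), exact permutation p = 0.00794 (adjusted 0.0159). Both ratios were higher in every Unloading and Reloading library than in any Control library, and Unloading and Reloading overlapped.

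The balance of the fast essential and fast regulatory chains also differed. Myl1 to Mylpf was 0.504 in Control, 0.335 in Unloading and 0.385 in Reloading, exact permutation p = 0.00397 (adjusted 0.0159), with every Control library above the others. The size of a ratio depends on the exon lengths used, while its fold difference between groups does not. Myl3 to Myl2, the slow pair, was 1.29, 1.17 and 0.917 with overlapping groups, exact permutation p = 0.260. Between single pairs of groups the exact two-sided permutation test cannot go below 0.133 (Unloading against Control), 0.0571 (Reloading against Control) or 0.2 (Reloading against Unloading), so no pair could pass. Without Control 1 the adjusted p of the first 3 ratios was 0.0714, 0.05 and 0.05. The first 2 also missed the threshold without Control 4 (0.0714 and 0.05), and Mylpf to Myl2 missed it without Unloading 2 (0.0571) or Reloading 2 (0.0508). The ratios themselves kept their direction against Control in each case.

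**Figure D5:**
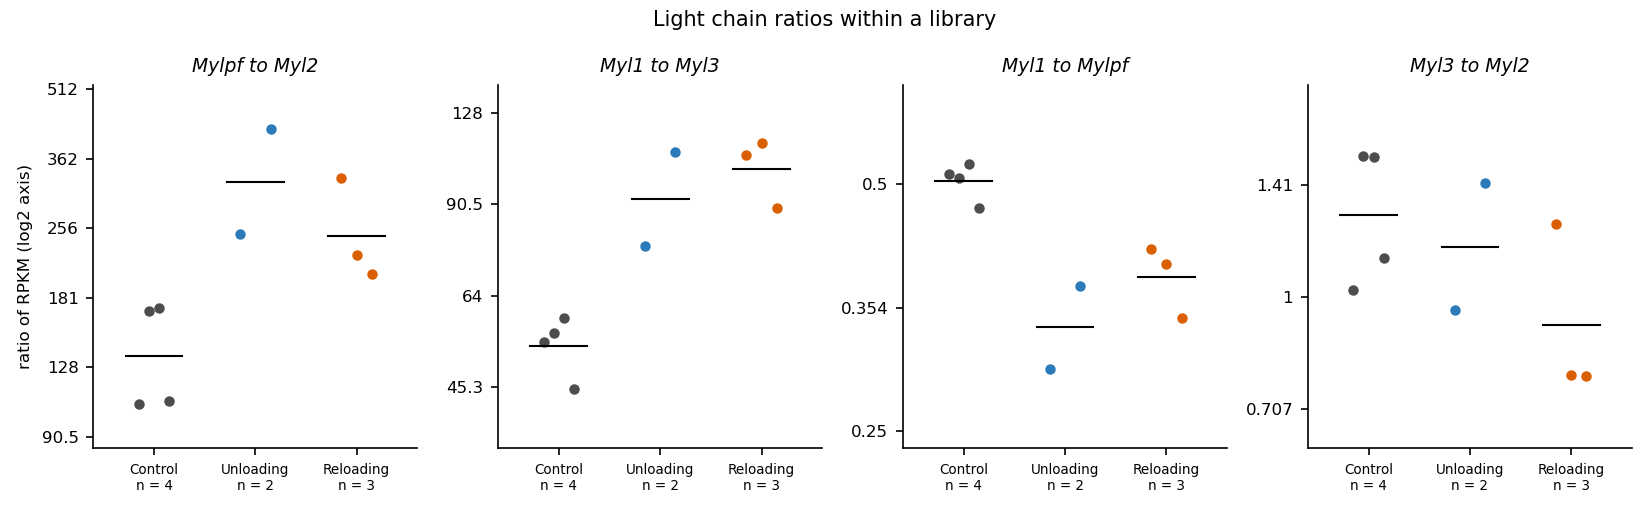
Ratio of RPKM of 2 light chain genes within each library (vertical axis, log2 scale) in Control, Unloading and Reloading, with a bar at the geometric mean. Mylpf to Myl2 and Myl1 to Myl3 lie higher, and Myl1 to Mylpf lower, in all Unloading and Reloading libraries than in Control.

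As shares of their class, Myl1 stayed at 97.4% ± 0.257 of essential light chain mRNA per length in Control, 97.8% ± 0.429 in Unloading and 97.2% ± 0.295 in Reloading. Myl3 went from 1.85% ± 0.220 to 1.07% ± 0.263 and 0.944% ± 0.125, while Myl6 went from 0.687% ± 0.0408 to 1.02% ± 0.131 and 1.63% ± 0.144. Mylpf made up 98.8% ± 0.179, 99.3% ± 0.101 and 98.5% ± 0.145 of the regulatory chains. Of the remainder, Myl2 held 0.748% ± 0.195 in Control, 0.317% ± 0.114 in Unloading and 0.408% ± 0.0958 in Reloading, against 0.208% ± 0.0110, 0.170% ± 0.0154 and 0.504% ± 0.0190 for Myl9. The summed RPKM of essential chains was 4861 ± 244 in Control, 3608 ± 427 in Unloading and 2651 ± 165 in Reloading. That of regulatory chains was 9509 ± 423, 10584 ± 443 and 6791 ± 265. These shares and sums depend on the summed exon lengths.

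The genes whose log2 CPM most resembled each member over the 9 libraries are given as a description, with 9873 candidates and libraries that share their group. Nearest to Myl1 was Myoz3 (r = 0.998), a Z-disc protein of fast fibres, and nearest to Myl3 were Ldhb (0.993), the heart-type lactate dehydrogenase subunit, and Idh2 (0.985), a mitochondrial dehydrogenase. Mylpf was followed by the fatty acid transporter Cd36 (0.987). Actn2 (0.995), Atp1b1 (0.992) and Acta2 (0.991) were nearest to Myl9, and Otulin (0.991) to Myl12a. The iron exporter gene Slc40a1 was in the nearest 3 of both Mylk2 (0.986) and Mylk4 (0.982). Myl6 was nearest to Exoc2 (0.979), Myl2 to Ptcd3 (0.956) and Myl4 to Rpl10a (0.939). Within the list, the pairs with r furthest from 0 were Mylpf with Mylk2 (0.952), Myl1 with Myl6 (-0.946), Myl6 with Myl12a (0.946), Mylk2 with Mylk4 (0.945) and Myl9 with Myl12a (0.939).

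Promoter sequence was searched because members moved together. RefSeq (GRCm38.p6) gave 11 promoter windows for 9 of the 10 genes, and the 250 bases before each RefSeq start were read on both strands. A CArG box, the element bound by serum response factor, occurred in windows of Myl3, Myl6 and Myl9, against 1.47% of 32851 windows. A MEF2 site occurred in that of Mylk4 (2.92% of all windows), and CAGCTG, an E-box of the kind myogenic factors bind, in windows of Myl1, Myl2, Mylpf, Myl12a and Mylk4 (13.0% of all windows). The Myl2 windows end at 122092723 and 122093188 on chromosome 5, upstream of the start of the counted Myl2 gene at 122100951. Starts are those of RefSeq, so a window can also lie inside the counted gene. The Myl3 window runs from 110763428 to 110763677 on chromosome 9, while the counted gene starts at 110741861. That of Mylpf lies inside its counted gene too. Stretches of 60 bases around the match are shown for a slow chain that fell, a smooth muscle chain that rose and a kinase that fell, with the match in capitals, 5′ to 3′ on the strand of the gene.
Myl3, chr9:110763568-110763627, plus strand, 85 to 76 bases before the start: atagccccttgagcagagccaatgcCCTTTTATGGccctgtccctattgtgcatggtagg
Myl9, chr2:156775278-156775337, plus strand, 161 to 152 bases before the start: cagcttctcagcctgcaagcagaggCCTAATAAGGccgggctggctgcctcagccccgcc
Mylk4, chr13:32784033-32784092, minus strand, 103 to 94 bases before the start: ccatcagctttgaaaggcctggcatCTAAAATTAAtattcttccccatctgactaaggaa
Of the genes with a CArG box, Myl3 was lower in Reloading and Myl6 and Myl9 were higher. Whether the box has a part in these differences was not tested. The window of Myl6 lies within exons of the gene and is not printed. These matches describe the sequence only.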

How the data were processed

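Polyadenylated RNA of 9 gastrocnemius samples was sequenced, 4 of them Control, 2 Unloading and 3 Reloading by their titles. Per the labels and file headers the authors aligned reads to GRCm38.p6 (STAR 2.7.3a), and featureCounts 2.0.3 assigned the pairs to genes of Ensembl release 102 without regard to strand. The study's methods describe single reads, whereas the labels and the counting describe pairs. The deposited values are raw counts without a filter or normalization. The authors' tables of fold changes and p-values were used for gene symbols only. Replicates of a group differed beyond sampling noise. Nothing in the labels says that each sample was a separate mouse, so p-values measure the spread between samples.

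The main test was that of edgeR 4.0.16 in R 4.3.3 (quasi-likelihood F-test, two-sided, TMM scaling, filterByExpr with count and total minima of 10 and 15, all libraries in 1 fit with group as the only term), which kept 14851 of 34376 genes with counts. Benjamini-Hochberg adjustment ran over all tested genes, with a threshold of 0.05. SE were derived from the F statistic. Log2 CPM used a prior count of 2. RPKM are CPM per kilobase of summed exon length. SciPy 1.17.1 was used for exact permutation tests. Alternatives were median-of-ratios size factors, library totals, no filter, a robust fit, DESeq2 1.42.0, only the groups compared, replicate blocks and leaving out libraries. The procedure was tested on simulated data.

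The genes, gene lists and ratios were chosen with earlier results of these data known. Named genes are the 10 genes, those of the lists, and for each the 3 most correlated genes with a mean log2 CPM of at least 2. The lists held other light chain and heavy chain genes, phosphatase, skeletal, fast, slow, cardiac and embryonic muscle, smooth muscle, pericyte, endothelium, fibroblast, macrophage and skin markers. Titles carry replicate numbers. Samples with the same title number did not deviate together (r between -0.20 and 0.08 over 7 pairs). By the numbers in the sample descriptions r was 0.02 to 0.36 over 6 pairs. The main fit used no pairing because the study used none, and blocks by both numberings were among the alternatives. Some genes of the lists, and results that rest on them, are not reported here.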

Additional observations from a re-analysis of the deposited data

How the results depend on the processing

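Leaving out 1 library gave 7 to 8 genes of the list called for Reloading against Unloading, 2 to 4 for Unloading against Control (2 without either Unloading library) and 9 to 9 for Reloading against Control. Over all genes it gave 3934 to 5654, 121 to 1518 and 5267 to 6506 calls. For Unloading against Control, 1470 calls became 121 without Unloading 1 and 949 without Control 3. The cause was not tested. Over the same leave-outs the log2 ratio Mylpf to Myl2 ran from 0.88 to 1.63 (Unloading against Control), 0.66 to 1.00 (Reloading against Control) and -0.77 to -0.015 (Reloading against Unloading). Myl1 to Myl3 ran from 0.55 to 1.06, 0.89 to 1.07 and -0.094 to 0.42, and Myl1 to Mylpf from -0.76 to -0.42, -0.44 to -0.30 and 0.035 to 0.37. Without Control 2 and Reloading 1, the libraries with skin transcripts, 8, 5 and 10 genes of the list were called for Reloading against Unloading, Unloading against Control and Reloading against Control, and the adjusted p of these 3 ratios was 0.0508, with values of 1.36 and 0.76 for Mylpf to Myl2, 0.83 and 0.95 for Myl1 to Myl3 and -0.59 and -0.44 for Myl1 to Mylpf against Control. Fewer samples leave fewer permutations.

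A replicate block by title numbers gave 7, 4 and 9 genes of the list and 5108, 1042 and 5705 of all genes for Reloading against Unloading, Unloading against Control and Reloading against Control. A block by the description numbers, which pair samples otherwise (r 0.02 to 0.36 over 6 pairs), gave 7, 4 and 9 and 4902, 1479 and 6632. In both, the call lost was Myl6 in Reloading against Unloading. Ratios with the block by title numbers were 1.14 (Mylpf to Myl2), 0.69 (Myl1 to Myl3) and -0.66 (Myl1 to Mylpf) for Unloading against Control. Without the filter Myl2 passed in Reloading against Unloading (-0.30, adjusted p = 0.0147), where its value ran from -0.64 to 0.19 over all alternatives, and Myl4 in Unloading against Control (0.52, adjusted p = 0.0150). With library totals Myl4 passed in Reloading against Control (0.47, adjusted p = 0.0276). Of 540 values of single genes under alternatives, 518 kept their side of the threshold, 17 lost and 5 gained a call, and 0 values that were called changed sign. Without Unloading 1, Myl2 in Reloading against Unloading, which was not called, changed sign (-0.27 to 0.19). The overlap with Gm49909 limits Myl12b, depth limits Myl7 and Mylk3, and 2 Unloading libraries limit every comparison with that group.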
